A study of Mus musculus with 90 samples.

Results

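The canonical replication histone genes were taken as every row of the deposited count table whose symbol begins with Hist1h, Hist2h, Hist3h or Hist4h. They made up 69 of the 24422 gene rows, with 6 genes for the linker histone H1, 19 for H2A, 19 for H2B, 12 for H3 and 13 for H4 by the letters of the symbol. The Hist1 genes (55 rows) lie on chromosome 13, the Hist2 genes (10) on chromosome 3, the Hist3 genes (3) on chromosome 11 and Hist4h4 on chromosome 6. Single CD-1 mouse oocytes and embryos were sequenced in 6 groups: wildtype (WT) and maternal Plag1 knockout (matPlag1KO), each at the MII oocyte, 2-cell (2c) and 8-cell (8c) stage. The females were 1 to 3 months old. Knockout females carry lacZ in place of the Plag1 reading frame. The matPlag1KO oocytes came from such females without mating, and the matPlag1KO 2c and 8c embryos came from such females mated with WT studs, so that these embryos are heterozygous and keep a paternal Plag1 allele. WT oocytes and embryos came from WT females, and all females were superovulated with pregnant mare serum and hCG. Oocytes were picked 21 to 23 h after hCG without culture, and embryos cultured in KSOM were picked at 45 to 47 hpf (2c) and 71 to 73 hpf (8c). No label ties an oocyte or embryo to its mother, so littermates may sit in a group unseen, and p-values measure the spread between single oocytes or embryos only.

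Replication histone genes are mostly intronless and lie in clusters. They are transcribed in S phase at histone locus bodies, where NPAT, activated by cyclin E and CDK2, works with factors such as HINFP for H4 genes and OCT1 (Pou2f1) for H2B genes. Their mRNAs normally end in a conserved stem-loop, bound by SLBP, and not in a poly(A) tail. H2A, H2B, H3 and H4 form the nucleosome core and H1 binds the linker DNA. Oocytes hold a store of histone mRNA and protein for the first cleavages. The libraries were primed with oligo(dT), so that the counts report histone transcripts that this primer could copy.

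The stem-loop letters are shown because they set these mRNAs apart from the polyadenylated transcripts that oligo(dT) is designed for. A stem-loop of 16 bases was searched within 100 bases after the stop codon of the mm9 genome, and it was found for 56 of the 61 members with a coding sequence in the annotation used here, including all 6 H1, all 10 H3 and all 12 H4 coding sequences. It was not found in that window for Hist1h2an, Hist1h2bp, Hist1h2bq, Hist2h2bb and Hist2h2be. The letters shown for Hist1h1a occurred in 33 members and those shown for Hist4h4 in 7. Examples from 3 members are given below with the loop in capitals.
Hist1h1a, chr13:23856261-23856276 (+ strand): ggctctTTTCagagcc
Hist1h3g, chr13:23627758-23627773 (+ strand): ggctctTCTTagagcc
Hist4h4, chr6:136752519-136752534 (- strand): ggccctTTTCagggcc

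Members of a type have like sequences, and their counts can be split or shared between rows. Over pairs of coding sequences of equal length, the median identity was 96.9% for H2A (79 pairs), 97.1% for H2B (78 pairs), 97.6% for H3 (45 pairs) and 93.9% for H4 (66 pairs). No pair was identical over the whole coding sequence, but 16 of 16 H2A, 14 of 17 H2B, 10 of 10 H3, 11 of 12 H4 and 3 of 6 H1 coding sequences shared an unbroken run of 50 bases with another member of their type. The first 60 coding bases of 6 H4 members are printed because H4 calls are described below. Capitals mark letters that differ from the most common letter at that position over 12 H4 members.
Hist1h4a: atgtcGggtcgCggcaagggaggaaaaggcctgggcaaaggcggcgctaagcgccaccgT
Hist1h4c: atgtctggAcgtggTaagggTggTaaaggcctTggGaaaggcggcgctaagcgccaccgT
Hist1h4i: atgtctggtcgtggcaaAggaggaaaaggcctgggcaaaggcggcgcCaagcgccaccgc
Hist1h4m: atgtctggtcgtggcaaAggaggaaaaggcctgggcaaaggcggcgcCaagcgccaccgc
Hist2h4: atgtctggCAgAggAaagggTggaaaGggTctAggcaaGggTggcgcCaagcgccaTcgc
Hist4h4: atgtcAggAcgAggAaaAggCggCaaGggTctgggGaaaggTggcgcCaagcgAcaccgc
Hist1h4i and Hist1h4m had the same 60 letters, while Hist4h4 differed from the most common letter at 13 of the 60 positions. How the authors treated reads that fit several places is not given in the sources used here, so values of single members are uncertain in this respect. In addition, 10 rows in 5 pairs cover the same or overlapping coordinates (Hist2h3c1 and Hist2h3c2, Hist2h2aa1 and Hist2h2aa2, Hist1h2ao and Hist1h2ap, Hist1h2bq and Hist1h2br, Hist1h4m and Hist1h4n), and the sums given here count each such pair once.

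The 200 bases before the annotated start of each row held CCAAT on either strand in 57 of 69 members (82.6%), against 30.9% of 24323 gene rows of any kind. All 6 H1, 19 H2A and 19 H2B windows held it, while 4 of 13 H4 windows did. The octamer ATTTGCAT, on either strand, was found in 7 H2A and 8 H2B windows and in none of the H1, H3 or H4 windows, against 1.33% of all rows. TATAAA was found in 27 of 69 windows (39.1%), against 9.75% of all rows. The motifs were counted independently, so that overlapping matches count for each. Windows of neighbouring H2A and H2B genes on opposite strands can overlap, as those of Hist1h2ah (row end 22127512, - strand) and Hist1h2bk (row start 22127690, + strand). A match in shared bases counts for both genes and so for both types. Rows that overlap each other also count separately here. The windows of 3 members with different makeup are shown on mm9 with every match of the motifs in capitals.
Hist1h1a, chr13:23855337-23855536 (+ strand): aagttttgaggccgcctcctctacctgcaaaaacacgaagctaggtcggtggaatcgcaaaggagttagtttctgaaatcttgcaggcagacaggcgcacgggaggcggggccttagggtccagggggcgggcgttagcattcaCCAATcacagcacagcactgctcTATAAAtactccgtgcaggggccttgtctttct
Hist1h2bk, chr13:22127490-22127689 (+ strand): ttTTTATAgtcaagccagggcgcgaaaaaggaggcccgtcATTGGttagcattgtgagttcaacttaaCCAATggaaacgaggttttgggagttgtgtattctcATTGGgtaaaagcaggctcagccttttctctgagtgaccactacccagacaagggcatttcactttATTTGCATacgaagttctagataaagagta
Hist1h4i, chr13:22133232-22133431 (- strand): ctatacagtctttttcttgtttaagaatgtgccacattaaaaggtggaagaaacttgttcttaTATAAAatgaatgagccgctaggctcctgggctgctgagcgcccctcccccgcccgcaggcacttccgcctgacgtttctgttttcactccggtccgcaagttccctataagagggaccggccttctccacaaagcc
Hist1h1a held CCAAT and TATAAA, Hist1h2bk held all 3 motifs, and Hist1h4i held TATAAA alone.

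Of 90 libraries, 78 had a median of at least 1 CPM (a count scaled to its library's total, with TMM factors for the levels given here) over expressed genes and were kept. These were 16 WT and 14 matPlag1KO oocytes, 11 embryos of each genotype at 2c, and 15 WT and 11 matPlag1KO embryos at 8c. Totals ran from 92475 to 2502421 gene counts and medians were lowest at 2c (148473 in WT, 163626 in matPlag1KO). Plag1 itself was lower in matPlag1KO oocytes (0.457 ± 1.02 against 32.8 ± 39.0 CPM, SD, edgeR adjusted p = 1.48e-10), but at 2c it was higher in the embryos labelled matPlag1KO (35.9 ± 30.2, n = 11, against 0.392 ± 1.30, n = 11, edgeR adjusted p = 0.000127). Summed oocyte markers (Zp1, Zp2, Zp3, Gdf9, Bmp15, Mos) were at 1502 CPM or more in every oocyte and at 329 CPM or less in every 8c embryo. The 2c list (Zscan4 genes, Zfp352 and the like, 8 of 10 in the table) summed to at least 78.1 CPM in every 2c embryo and to at most 11.6 CPM in any other library. Zfp352 made up most of it at 2c (mean 277 of 313 CPM in WT and 303 of 395 CPM in matPlag1KO embryos). Zscan4f, Tcstv1 and Tcstv3 had no counts. The cumulus cell list (7 genes) summed to 4.90 CPM or less in oocytes and to at most 106 CPM in embryos, where Amhr2 alone made up most of it (mean 41.3 CPM in WT embryos at 2c) and Ptx3 and Cd44 had no counts.

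Before any comparison, a property of the 2 plates (pools A and B) has to be stated. Libraries at the same well position in both plates were often high for the same histone genes. At MII the 14 wells filled in both plates held opposite genotypes, and yet 8 of 21 members with at least 10 counts in each plate had their highest CPM in the same well of both plates. The same held for 5 of 10 members over 8 wells at 2c and for 15 of 31 members over 12 wells at 8c. For other genes the shares were 32.6% at MII, 24.3% at 2c and 25.4% at 8c. Across members, deviations from the group mean in the same well of both plates had a median correlation of 0.42 at MII (14 wells, 64 members), 0.12 at 2c (8 wells) and 0.35 at 8c (12 wells), against -0.10, -0.10 and -0.09 for different wells. In well B2 the H1 genes made up 0.127% of gene counts in the WT oocyte of plate B and 0.0952% in the matPlag1KO oocyte of plate A, the highest values of both groups. At 8c, and in 6 of 8 wells at 2c, the same well held the same genotype in both plates, and every stage had wells of its own. Values at 8c thus rest on 8 WT and 6 matPlag1KO wells. For this reason each well was left out in turn, and libraries of the same well and group were summed, as alternatives chosen after the data were seen. Why libraries of the same well resemble each other was not tested.

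**Figure D1:**
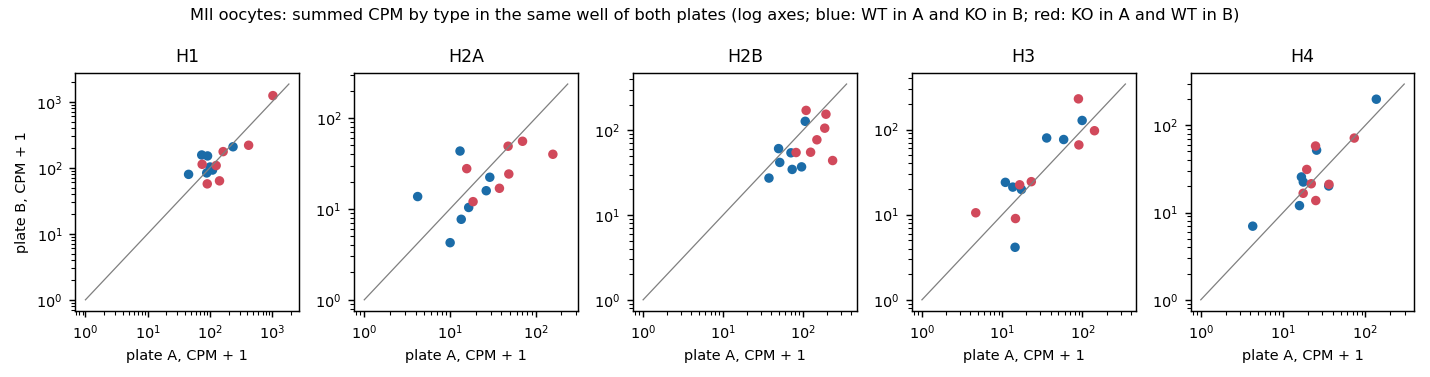
Summed CPM + 1 of each histone type in MII oocytes, with plate A on the x axis and plate B on the y axis (log axes), 1 point per well and the line of equality. The 14 wells held opposite genotypes in the 2 plates, and the well with the highest H1 sum and the well with the highest H4 sum were the same in both.

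Counts also gathered in few wells. Among members with at least 50 and under 2000 counts at a stage, the top well of those filled in both plates held a median of 38.8% of the counts at MII (17 members), 52.9% at 2c (5) and 43.2% at 8c (29). Other genes in the same range of counts had medians of 25.4%, 25.0% and 18.2%.

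The histone genes took up a small part of all gene counts, and group means did not differ by more than the spread between libraries. Their sum was 0.0377% ± 0.0338 (SD, n = 16) in WT and 0.0432% ± 0.0312 (n = 14) in matPlag1KO oocytes. At 2c it was 0.0455% ± 0.0235 (n = 11) in WT and 0.0767% ± 0.0846 (n = 11) in matPlag1KO embryos. At 8c it was 0.0536% ± 0.0750 (n = 15) in WT and 0.0916% ± 0.0814 (n = 11) in matPlag1KO embryos. WT 8c embryos ran from 0.00791% to 0.278% with a median of 0.0227%, and matPlag1KO 8c embryos from 0.0170% to 0.285% with a median of 0.0710%, so that the groups overlapped over nearly their whole range.

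H1 genes held the largest part of the pooled histone counts in WT (45.6%) and matPlag1KO (48.2%) oocytes and in WT embryos at 2c (48.2%), also with any library left out, an alternative likewise chosen after the data were seen. In matPlag1KO embryos at 2c they held 38.8%, but 23.2% without well D1 of plate A, when H4 genes held 40.6%. At 8c H2B genes held 38.8% of the histone counts in WT embryos and H1 genes 41.1% in matPlag1KO embryos. Without well E1 of plate A the WT part of H2B was 25.6% and that of H1 26.8%, and without well E5 of plate B the matPlag1KO part of H1 was 20.9%. H2A genes held 4.55% and 7.30% in oocytes and 19.2% and 19.98% at 8c. The part of H4 genes was 32.7% in matPlag1KO embryos at 2c and between 9.50% and 14.8% in the other groups. Single libraries held much of the H2B sum of WT embryos at 8c and of the H1 sum of matPlag1KO embryos at 2c and 8c. The highest WT 8c library for H2B (well E1) had 0.192% of its counts there against a group median of 0.00387%. For H1, the highest matPlag1KO 8c library (well E5) had 0.216% against a median of 0.00592%.

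**Figure D2:**
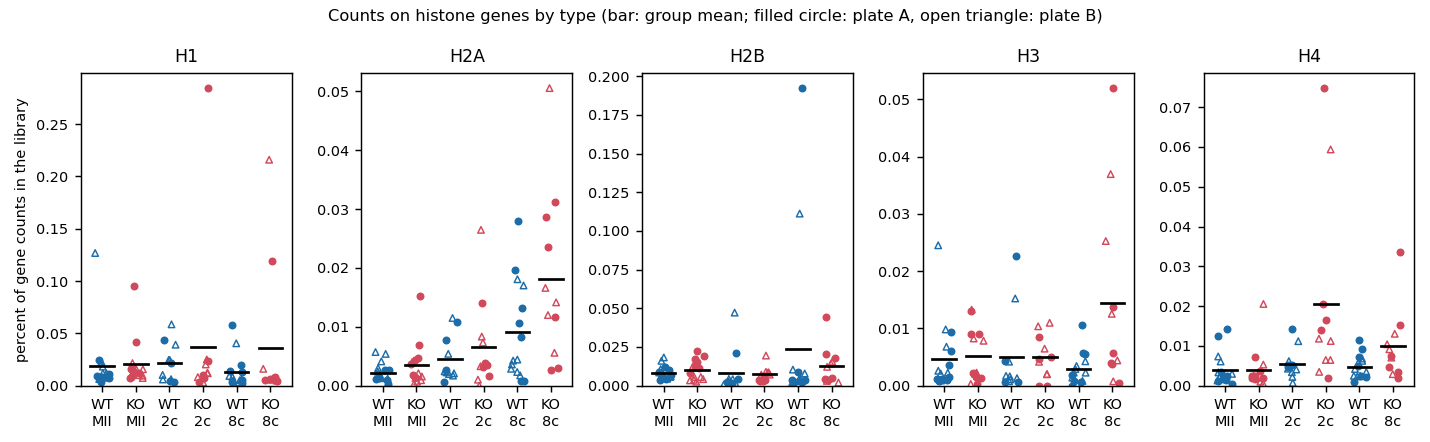
Percent of each library's gene counts on the histone genes of each type (y axis, linear, a scale per panel) in the 6 groups, with a bar at the mean; KO stands for matPlag1KO. Single libraries stand far above their group, such as the WT 8c library at 0.192% for H2B, where the group median is 0.00387%.

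By member, 7 of the 69 rows had no count in any of the 90 libraries (Hist1h1t, Hist1h2ao, Hist1h2ap, Hist1h2bq, Hist1h2br, Hist1h4k and Hist2h2ab), and 38 stayed under 10 CPM in every group. Of the 69 members, 54 passed the filter of at least 1 CPM in at least 5 libraries and were tested among 16511 genes (5 H1, 14 H2A, 14 H2B, 11 H3 and 10 H4 members). Hist1h1a, a somatic linker histone, had at least 1 count in each of the 78 libraries. Hist1h1a ran from 36.4 CPM over a median of 81.4 to 1171 in WT oocytes and from 58.5 over 110 to 934 in matPlag1KO oocytes. At 2c its lowest, median and highest values were 28.1, 149 and 435 CPM in WT and 20.1, 78.5 and 1913 in matPlag1KO embryos. The highest library thus lay far above the median in each of these groups.

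Genes described as testis-specific were looked at separately. Hist1h1t had no counts. Hist1h2ba, a testis H2B, had 17 counts in 3 of 16 WT oocytes and 14 counts in 5 of 14 matPlag1KO oocytes, and 2 counts in all 48 embryos together. Hist1h2aa, a testis H2A, was found in 11 of 16 WT oocytes (mean 11.6 ± 12.7 CPM) and 13 of 14 matPlag1KO oocytes (27.5 ± 39.9 CPM), and in embryos of both genotypes. At 2c it was found in 3 of 11 WT (6.77 ± 17.2 CPM) and 8 of 11 matPlag1KO embryos (25.0 ± 32.8 CPM), and at 8c in 4 of 15 WT (4.76 ± 10.4 CPM) and 8 of 11 matPlag1KO embryos (15.0 ± 15.6 CPM), without a genotype call at any stage. Per spike-in count, the scale explained with the stages, Hist1h2aa fell from MII to 2c in WT (log2 fold change -2.30 ± 0.88, edgeR adjusted p = 0.0183) and in matPlag1KO (-1.87 ± 0.79, adjusted p = 0.0332). The WT call ended without well C2 or C3, the matPlag1KO call without any of 6 wells (B7, D1, D2, D5, D6 and D7), and in plate B alone the matPlag1KO difference of Hist1h2aa was 0.62. The sperm list (Prm1, Prm2, Tnp1, Tnp2) summed to at most 105 CPM in an oocyte, 33.8 CPM in a 2c and 2.60 CPM in an 8c embryo; its part in these values was not tested.

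The genotype comparisons address whether loss of maternal Plag1 goes with other histone transcript levels at each stage. In MII oocytes no member was called, while 0.781% of all 16511 genes tested were called at an edgeR adjusted p under 0.05. At an unadjusted p under 0.05 there were 7 of 54 members, against 1690 of all 16511 genes, and DESeq2 called 0 members. The lowest adjusted p of a member was 0.0538 for Hist1h4d in edgeR. The members' median log2 fold change was 0.00 (0.12 with groups at 0 counts set to a bound), with 23 members above and 25 below 0, and the median of all genes was 0.00.

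At 2c, 2 of 54 members (3.70%) were called, against 4.92% of all genes tested, so the share was near the background. Hist4h4, an H4 gene at chr6:136752514-136752952, ran from 0 over a median of 6.69 to 556 CPM in matPlag1KO embryos (7 of 11 with a count) and from 0 over 0 to 17.2 CPM in WT embryos (2 of 11 with a count). The groups overlapped, and the high values came from well D7, with 137 counts in plate A and 123 in plate B, or 91.9% of the group's counts. Its log2 fold change was 5.22 ± 1.21 (SE, edgeR adjusted p = 0.00511). Without well D7 the log2 fold change of Hist4h4 was 2.00 and the adjusted p was 0.402.

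Hist1h3i, an H3 gene at chr13:21874784-21875266, was the member called lower in matPlag1KO embryos at 2c. It ran from 0 over 0 to 181 CPM in WT embryos (5 of 11 with a count) and from 0 over 0 to 16.2 CPM in matPlag1KO embryos (3 of 11). Well C2 held 95.7% of its WT counts, 42 in plate A and 25 in plate B. The log2 fold change of Hist1h3i was -3.16 ± 0.90 (edgeR adjusted p = 0.0268) and 0.56 without well C2 (adjusted p = 0.827), and the call also ended without well D7 or D8. When libraries of the same well and group were summed, 0 of 52 members were called at 2c, against 1.02% of all genes, with an adjusted p of 0.0533 for Hist4h4 and 0.122 for Hist1h3i.

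At 8c, 9 of 54 members (16.7%) were called, against 1.74% of all genes tested. Of these, 8 were higher in matPlag1KO embryos (14.8%, against 1.21% of all genes) and 1 was lower (1.85%, against 0.527%). The higher members were the linker histone Hist1h1a, the H2A genes Hist2h2ac, Hist1h2af and Hist1h2ac, the H2B gene Hist1h2bl, the H3 gene Hist1h3g and the H4 genes Hist1h4i and Hist1h4a. Hist1h2bk, an H2B gene, was lower. Over all tested members the log2 fold change was above 0 for 10 of 14 H2A and 9 of 11 H3 members and below 0 for 10 of 14 H2B members, with medians of 0.99, 1.71 and -0.91, against 0.00 for all genes. H4 members were split 5 against 5 and H1 members 3 against 2. Members of like sequence, and both rows of overlapping pairs, count separately in these splits. The share of all genes above 0 and the splits without single wells were not computed.

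Each of these 9 calls ended when the well with its highest counts was left out, and these were 4 wells in all. Well E5 (matPlag1KO in both plates) held 91.6% of the group's Hist1h1a counts, 160 in plate A and 726 in plate B. Outside that well, the matPlag1KO embryos ran from 6.96 to 87.7 CPM of Hist1h1a, within the WT range of 4.90 to 238 CPM, and the medians of all libraries were 25.6 CPM in matPlag1KO and 18.1 CPM in WT. The log2 fold change of Hist1h1a was 2.38 ± 0.63 (edgeR adjusted p = 0.0302) with well E5 and -0.87 (adjusted p = 0.594) without it. The call of Hist1h1a also ended, at a log2 fold change of 2.22 to 2.32, without well E4, F2, F3 or F4.

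Well E5 also held most counts of the 3 H2A genes. It held 77.9% of the matPlag1KO counts of Hist2h2ac (18 and 35 counts in plates A and B), 79.3% of Hist1h2af (3 and 20) and 73.7% of Hist1h2ac (2 and 12, where plate A also had 2 counts in well E8). WT embryos had 11, 3 and 1 counts in all for Hist2h2ac, Hist1h2af and Hist1h2ac. Per gene count on TMM sizes, Hist1h2af was 15.9 times as high in matPlag1KO embryos (95% counting interval 4.94 to 81.8) and Hist1h2ac 31.3 times (4.98 to 1302), intervals that cover counting error only. Without well E5 their adjusted p values rose to 0.619 for Hist2h2ac, 0.351 for Hist1h2af and 0.205 for Hist1h2ac.

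Well F6 (matPlag1KO in both plates) held the counts of 3 further genes. Hist1h3g, at chr13:23627287-23627778, had 211 counts there in plate A and 93 in plate B, or 93.3% of the 326 counts of the group, and 10 counts over 15 WT embryos. It ran from 0 over a median of 2.40 to 566 CPM in matPlag1KO embryos and from 0 over 0 to 13.02 CPM in WT embryos, with 7 of 11 and 5 of 15 embryos having a count. Its log2 fold change was 5.47 ± 0.79 (edgeR adjusted p = 3.35e-06), and 1.81 without well F6 (adjusted p = 0.308). Hist1h2bl had 92 and 30 counts in that well and 128 in the group, and its log2 fold change went from 3.80 (adjusted p = 0.0142) to -0.19 (adjusted p = 1.00) without the well. Hist1h4a had 40 and 4 counts there and 50 in the group against 3 counts in WT embryos, a ratio of 27.5 on the same scale (95% counting interval 8.88 to 138), and its adjusted p went from 0.00272 to 0.507.

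Hist1h2bk was higher in WT embryos through well E1, which held 130 counts in plate A and 34 in plate B, or 72.2% of the WT counts. Its median was 2.48 CPM in WT and 2.92 CPM in matPlag1KO embryos, and its highest values were 419 and 25.3 CPM. The log2 fold change of Hist1h2bk was -3.05 ± 0.86 (adjusted p = 0.0427) and -1.07 (adjusted p = 0.564) without that well. Leaving out well E5, E8, F4, F5 or F6 also took the adjusted p of Hist1h2bk over 0.05, at log2 fold changes of -2.78 to -3.05.

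Hist1h4i, an H4 gene at chr13:22132829-22133231, was spread most evenly of the 9. All 11 matPlag1KO embryos lay between 19.1 and 342 CPM with a median of 59.0, and all 15 WT embryos between 1.97 and 69.1 CPM with a median of 13.02. The groups overlapped, and the highest well (E8) held 25.8% of the matPlag1KO counts. The log2 fold change of Hist1h4i was 1.76 ± 0.48 (edgeR adjusted p = 0.0374) and stayed between 1.22 and 1.93 when each of 14 wells was left out. The adjusted p rose above 0.05 for 9 of the 14 wells, to 0.221 without well E8, and in DESeq2 it was 0.0220.

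**Figure D3:**
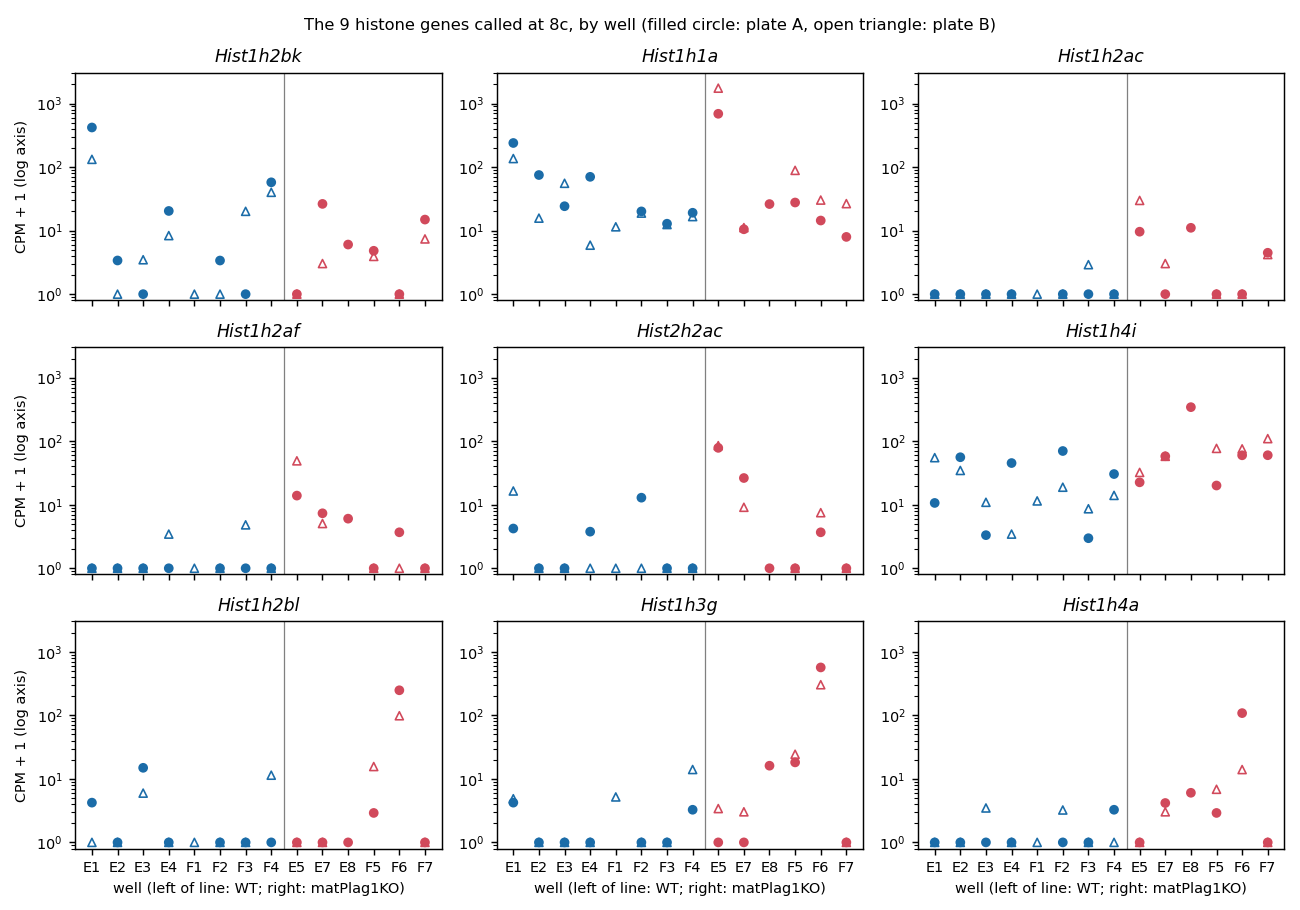
CPM + 1 (log axis) of the 9 members called at 8c in each library, by well position on the x axis, with WT wells left of the line and matPlag1KO wells right of it; circles are plate A and triangles plate B. Hist1h3g, Hist1h2bl and Hist1h4a are high in well F6 of both plates, Hist1h1a, Hist2h2ac and Hist1h2af in well E5 of both plates, Hist1h2ac in well E5 of plate B, and Hist1h2bk in well E1, while Hist1h4i is above 0 in every library.

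When libraries of the same well and group were summed, leaving 8 WT and 6 matPlag1KO wells at 8c, 1 of 52 members was called, against 0.172% of all genes. This was Hist1h3g (log2 fold change 5.46, edgeR adjusted p = 0.00363). Group means of other genes also differed between genotypes at 8c, and they are given here without a test and without leaving out wells. Krt8 and Krt18, keratins of the forming trophectoderm, were at 76.8 and 48.2 CPM in WT and 19.99 and 12.8 CPM in matPlag1KO embryos, and Cdx2, a trophectoderm factor, at 41.8 and 9.49 CPM. The WT SD was 76.1 CPM for Krt8, 30.0 for Krt18 and 50.4 for Cdx2, and the groups overlapped for each. Krt8 ran from 19.4 to 314 CPM in WT and from 0 to 56.3 CPM in matPlag1KO embryos. All 7 markers of the 8c list had counts in both groups, and each had a lower mean in matPlag1KO embryos, such as Pou5f1 (1249 ± 780 against 648 ± 593 CPM) and Tead4 (178 ± 64.1 against 131 ± 55.7 CPM). Their sum ran from 6314 to 14129 CPM in WT and from 5725 to 12444 CPM in matPlag1KO embryos and was mostly Dppa3, which oocytes hold as well (8236 CPM in WT 8c embryos and 6236 CPM in WT oocytes). Median totals were 564009 and 393914 gene counts. The part of developmental progress and of depth in the histone values was not tested.

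Genotype differences were also compared between stages. From MII to 2c no member was called for a change of its genotype difference (0 of 54 in edgeR, against 3.31% of all genes, and 0 in DESeq2). At an unadjusted p under 0.05 in edgeR there were 4 of 54 members, against 2923 of all 16511 genes. Between 2c and 8c it differed for 2 of 54 members (3.70%), against 2.30% of all genes. Hist1h4a was the member whose matPlag1KO difference was higher at 8c than at 2c, by 4.96 ± 1.25 on the log2 scale (edgeR adjusted p = 0.0191). Hist4h4 moved the other way, by -6.20 ± 1.57 (adjusted p = 0.0198). The wells named above (F6 and D7) hold most counts of both genes, and with same-well libraries summed neither was called.

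The stage comparisons ask which histone transcripts fall from the oocyte to the 2c stage and which appear by 8c. They were scaled to the spike-in RNA added to each library, in counts per 1000 spike-in counts. On this scale all genes fell by a median of 1.46 (WT) and 1.42 (matPlag1KO) on the log2 scale from oocyte to 2c, and the median over genes was 0.53 and 0.30 higher at 8c than at 2c. A library pools the cells of an embryo, so that more cells and more RNA per cell cannot be told apart.

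From MII to 2c, 17 of 54 members fell (31.5%) and 7 rose (13%) in WT embryos, against 51.3% and 14.1% of all genes. In matPlag1KO embryos 19 fell (35.2%) and 6 rose (11.1%), against 50.3% and 13.5%. With overlapping rows counted once, 15 of 52 members fell in WT and 18 of 52 in matPlag1KO. The shares of members that rose were thus near the background in both genotypes. The median log2 fold change of the members was -1.03 in WT (-1.25 with groups at 0 counts set to a bound) and -0.57 in matPlag1KO (-0.75 with bounds). With gene counts as the scale (TMM) the split turned, to 8 higher and 4 lower in WT and 15 higher and 2 lower in matPlag1KO. The directions below are thus per spike-in count. Shares of all genes on the TMM scale were not computed, so this turn cannot be set against the background. Per spike-in count, 11 members fell and 4 rose in both genotypes, with both rows of Hist2h3c1 and Hist2h3c2 among the falls. The share of all genes called the same way in both genotypes was not computed.

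With Hist2h3c1 and Hist2h3c2 counted once, 5 of 10 H3 genes fell in WT and 6 of 10 in matPlag1KO, near the shares of all genes (51.3% and 50.3%). Hist2h3c1, whose row shares its coordinates with Hist2h3c2, went from 263 counts in 5 of 16 WT oocytes to 2 counts in 11 WT 2c embryos, a fall of 85.1 times per spike-in count (95% counting interval 23.3 to 706). In matPlag1KO the log2 fold change of Hist2h3c1 was -2.92 ± 1.12 (adjusted p = 0.0191), and -1.77 without well A5 (adjusted p = 0.134). Hist1h2bc, an H2B gene, fell in both genotypes, with a log2 fold change of -3.26 ± 0.78 in WT (edgeR adjusted p = 0.000191) and -4.03 ± 0.78 in matPlag1KO (adjusted p = 7.13e-06). Hist1h2bc was found in 15 of 16 WT oocytes and 5 of 11 WT 2c embryos. Hist2h2bb, another H2B gene, fell as well (-3.26 ± 1.12 in WT and -2.91 ± 1.09 in matPlag1KO), and the latter call ended without well B8. Hist4h4 fell by 4.95 ± 1.33 in WT (adjusted p = 0.000848), with 344 counts in 9 of 16 oocytes and 5 counts at 2c, and this call was lost without well A5 of the oocytes (log2 fold change -2.03, adjusted p = 0.0881). In matPlag1KO embryos, where well D7 is high at 2c, Hist4h4 had a log2 difference of -0.16 ± 0.95 (adjusted p = 0.905). Hist3h2ba, an H2B gene, fell by 3.18 ± 0.69 in matPlag1KO embryos (adjusted p = 5.27e-05).

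Rises from MII to 2c were few and small in counts. The H2A gene Hist1h2ak was called in both genotypes, with 1 count in 16 WT oocytes and 14 counts in 11 WT 2c embryos (a ratio of 21.6 per spike-in count, 95% counting interval 3.29 to 915), and with 0 counts in matPlag1KO oocytes and 9 at 2c (at least 3.93-fold higher, with a floor of 3 counts over the group). Hist1h4i rose by 1.46 ± 0.63 in WT (adjusted p = 0.0360), from 8 of 16 to 8 of 11 libraries with a count, and this call ended for 9 of 25 wells left out, at log2 fold changes of 1.29 to 1.39. Hist1h3i was called higher in WT, but its counts sat in well C2, and without that well the log2 fold change was 0.27 (adjusted p = 0.877). In matPlag1KO Hist1h3i was called higher as well, from 0 counts in oocytes to 8 at 2c (at least 3.49-fold). That call ended without well D2 (log2 fold change 1.53, edgeR adjusted p = 0.153). The linker histone Hist1h1a had 9.06 counts per 1000 spike-in counts in WT oocytes and 3.35 at 2c, a log2 difference of -1.44 ± 0.69 (adjusted p = 0.0619). In matPlag1KO Hist1h1a fell by 1.84 ± 0.72 (adjusted p = 0.0204), a call that ended without well B2, D2, D6 or D8, and with gene counts as the scale its log2 difference was 0.40 (adjusted p = 0.634).

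From 2c to 8c, 22 of 54 members rose (40.7%) and 3 fell (5.56%) in WT, against 31.9% and 16.2% of all genes. In matPlag1KO embryos 22 rose (40.7%) and 3 fell (5.56%), against 29.1% and 19.5%. With each well left out in turn, 15 to 24 members rose in each genotype. The lowest number, 15 of 54, came without well E1 in WT and without well E5 in matPlag1KO. Shares of all genes under these omissions were not computed. With gene counts as the scale the split was 15 higher and 5 lower in WT, and 15 higher and 3 lower in matPlag1KO, again without the share of all genes on that scale. The median log2 fold change was 1.83 in WT and 1.74 in matPlag1KO (1.78 and 2.06 with bounds). In both genotypes 13 members rose, and Hist1h4c and Hist3h2ba fell in both, again without a share of all genes called alike in both. Hist1h4a went opposite ways, from 16 to 3 counts in WT (8.82 times lower per spike-in count, 95% counting interval 2.52 to 47.2) and up by 2.00 ± 0.85 on the log2 scale in matPlag1KO (adjusted p = 0.0425), where the difference was -0.34 without well F6. By type, 4 of 5 H1, 4 of 14 H2A, 9 of 14 H2B, 1 of 11 H3 and 4 of 10 H4 members rose in WT, and 3, 8, 5, 4 and 2 in matPlag1KO.

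Among linker histones, Hist1h1b was found in 3 of 11 WT and 2 of 11 matPlag1KO embryos at 2c and in all 15 and all 11 embryos at 8c. It rose by 4.14 ± 0.69 in WT (edgeR adjusted p = 3.77e-07) and by 3.39 ± 0.69 in matPlag1KO (adjusted p = 2.30e-05) on the log2 scale. Hist1h1c had 0 counts in all 22 embryos at 2c and 61 and 80 counts at 8c in WT and matPlag1KO, at least 12.3-fold and 27.2-fold higher per spike-in count. Hist1h1d rose by 3.15 ± 1.01 (WT) and by 6.12 ± 1.12 (matPlag1KO), and its WT call was lost without well E1 (log2 fold change 1.78, adjusted p = 0.128).

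For the core histones, Hist1h2ak was found in all 26 embryos at 8c and rose by 3.60 ± 0.64 in WT (adjusted p = 1.99e-06) and by 5.57 ± 0.71 in matPlag1KO (adjusted p = 3.81e-10). At 8c its lowest, median and highest values were 5.92, 25.1 and 196 CPM in WT and 6.40, 93.6 and 274 CPM in matPlag1KO embryos. Hist1h2ae, also an H2A gene, went from 0 counts at 2c to 155 counts in 10 of 15 WT 8c embryos, at least 31.2-fold higher. In matPlag1KO embryos it went from 2 to 88 counts, a ratio of 45.0 (95% counting interval 12.1 to 377). Hist2h4, an H4 gene, had 0 counts in WT embryos at 2c and 84 at 8c, at least 16.9-fold higher. Hist1h4i rose by 1.59 ± 0.59 (WT, adjusted p = 0.0209) and 3.36 ± 0.65 (matPlag1KO, adjusted p = 9.02e-06), where the WT call ended without well C3, E2 or F2. Hist1h3g, the H3 gene of well F6, rose in matPlag1KO (4.98 ± 0.97, adjusted p = 1.26e-05), but not past the threshold without that well (1.67, adjusted p = 0.129).

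Hist2h2bb, an H2B gene, was called higher at 8c in both genotypes, by 4.75 ± 1.16 in WT (adjusted p = 0.000382) and 3.33 ± 1.13 in matPlag1KO (adjusted p = 0.0107). The counts sat in few wells: 5 of 15 WT embryos had a count, and without well E1 the WT difference was -1.06 (adjusted p = 0.405). Without well E7 the matPlag1KO difference of Hist2h2bb was 1.31 (adjusted p = 0.376). Hist1h2bm went from 1 to 103 counts in WT, a ratio of 62.3 (95% counting interval 10.9 to 2484), and from 2 to 14 counts in matPlag1KO embryos. In the opposite direction, Hist1h4c, an H4 gene found in all 30 oocytes and 21 of 22 embryos at 2c, was left in 5 of 15 WT and 1 of 11 matPlag1KO embryos at 8c. It fell by 2.08 ± 0.58 in WT (adjusted p = 0.00194), and from 60 to 3 counts in matPlag1KO embryos, 19.6 times per spike-in count (95% counting interval 6.39 to 97.6). Of the falls to 8c, only that of Hist1h4c was called with each well left out in turn, in both genotypes. Hist4h4 fell in matPlag1KO (-3.43 ± 1.18, adjusted p = 0.0119) through the 2c well D7, and was at -0.24 without it. Hist3h2ba fell in WT (-2.61 ± 0.72, adjusted p = 0.00164), where the call ended without well D4, and in matPlag1KO (-2.12 ± 0.88, adjusted p = 0.0398), where it ended for 7 of 13 wells.

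**Figure D4:**
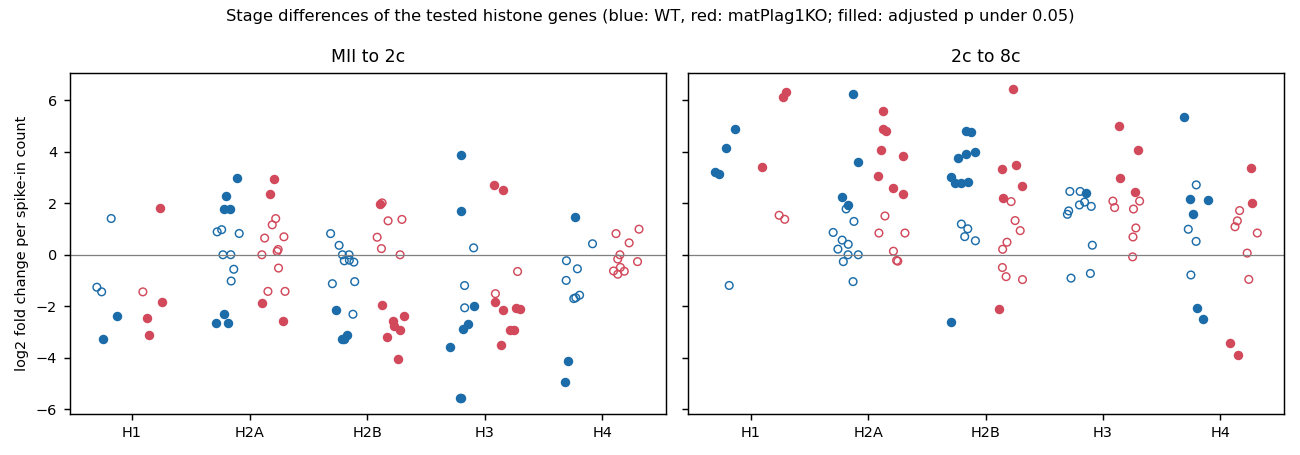
Log2 fold change per spike-in count (y axis) of the 54 tested members by type (x axis), with the MII to 2c step in one panel and the 2c to 8c step in the other, blue for WT and red for matPlag1KO, filled where the edgeR adjusted p was under 0.05. From 2c to 8c, 22 filled points lie above 0 and 3 below in each genotype.

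With each well of the compared stages left out in turn, 14 of 24 WT calls for the MII to 2c step and 12 of 25 for the 2c to 8c step held throughout. In matPlag1KO 7 of 25 and 10 of 25 did. These omissions were tallied for members only, and the share of all called genes that held was not computed. The 14 WT calls include both overlapping rows of Hist2h2aa1 and Hist2h2aa2 and of Hist2h3c1 and Hist2h3c2. Hist1h1b, Hist1h1c, Hist1h2ae, Hist1h2ak and Hist1h2bc were among those that rose to 8c in both genotypes under every such omission.

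The genes that make and remove histone mRNA were given by a list of 21, all of which were tested. None was called between genotypes at MII, 1 at 2c (4.76%, against 4.92% of all genes) and 2 at 8c (9.52%, against 1.74%), so that the share at 2c was that of all genes. Pou2f1 (OCT1), which activates H2B genes, was higher in matPlag1KO embryos at 2c (33.7 ± 24.7 against 6.91 ± 6.56 CPM, log2 fold change 2.25, edgeR adjusted p = 0.0342). At 8c Lsm1, a subunit of the ring that starts decay of histone mRNA, was higher (192 ± 58.7 against 70.7 ± 24.9 CPM, adjusted p = 0.000136). Cpsf2, of the cleavage complex that cuts histone pre-mRNA, was lower (28.3 ± 13.1 against 82.7 ± 97.0 CPM, edgeR adjusted p = 0.0263). The WT median of Cpsf2 was 44.1 CPM and its highest WT value 335 CPM. The calls of Pou2f1, Lsm1 and Cpsf2 were not checked by leaving out or summing wells.

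Slbp, the stem-loop binding protein, was at 3467 ± 1050 CPM in WT and 3457 ± 951 CPM in matPlag1KO oocytes, and fell per spike-in count by 4.17 ± 0.33 (WT, adjusted p = 3.46e-19) and 4.66 ± 0.35 (matPlag1KO, adjusted p = 7.12e-21) on the log2 scale from MII to 2c. At 2c it was at 502 ± 140 CPM in WT and 416 ± 293 CPM in matPlag1KO embryos, with a genotype difference of -0.27 ± 0.25 (adjusted p = 0.559). From MII to 2c, 13 of the 21 genes fell in WT (61.9%, against 51.3% of all genes) and 15 in matPlag1KO (71.4%, against 50.3%), and Ccne1 (cyclin E1) was the gene of the list that rose in both. Ccne1 went from 0.548 ± 1.16 to 64.7 ± 29.0 CPM in WT and from 0.652 ± 1.05 to 70.9 ± 46.5 CPM in matPlag1KO. From 2c to 8c, 6 rose (28.6%, against 31.9% of all genes in WT and 29.1% in matPlag1KO) and 2 fell in each genotype, with Cdk2, Cpsf3, Cstf2 and Eri1 rising and Lsm10, a subunit of the U7 particle, falling in both.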

How the data were processed

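Single oocytes and embryos were sequenced from transcript 5′ ends with oligo(dT) priming, UMIs and added ERCC transcripts on 2 plates. The authors mapped the reads to mm9 with TopHat, counted them per gene with HOMER and deposited raw counts for 90 libraries and 92 spike-ins, without normalization. UMIs were joined before mapping, with no further detail. Handling of strand and multiply mapped reads is not given in the sources used here.

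Columns were matched to samples by label and no column was left out. Libraries with a median under 1 CPM (12 of 90) and genes without 1 CPM in at least 5 libraries were dropped. All 6 groups were fitted together in edgeR 4.0.16 (R 4.3.3) by the quasi-likelihood test, with Benjamini-Hochberg adjustment over 16511 genes and a threshold of 0.05. Genotypes were compared on TMM sizes and stages on spike-in totals. CPM use TMM sizes. Bounds use a floor of 3 counts over a group, and counting intervals (95%, exact conditional binomial) cover counting error only. Libraries within groups all differed beyond counting noise (lowest chi-square per degree of freedom 3.54). The edgeR steps were tested on simulated counts drawn independently for each library, with changes placed only in genes of higher counts. Recovery of changes at low counts, and counts gathered in wells, were not covered. Alternatives included DESeq2 1.42.0, other scalings, filters, plates and wells.

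The members, lists and the rule for named genes were chosen with earlier results of these data known. Named were members called between genotypes or in an interaction, the highest member of each type, up to 5 rises and 5 falls per stage step with at least 10 CPM and 1 direction in both plates, testis members, Hist4h4, Hist1h3i and the 21 listed genes. Coding sequences came from GENCODE vM1 and windows from the mm9 genome. Correlations of same-well libraries over 7059 genes ran from -0.07 to 0.81 in 14 oocyte pairs. Wells were not taken as pairs in the main fits, which treat libraries of the same well as independent.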

Additional observations from a re-analysis of the deposited data

Results flagged for a closer look

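For 2 members the genotype difference at 8c was tested against that at 2c and differed. For Hist1h4a the difference at 8c minus that at 2c was 4.96 on the log2 scale, and for Hist4h4 it was -6.20. The counts behind both sat in single wells, F6 at 8c for Hist1h4a (88.0% of the matPlag1KO counts) and D7 at 2c for Hist4h4 (91.9%). Groups of more than 10 libraries were not searched for outlying libraries.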

How the results depend on the processing

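The 2 genotype calls at 2c became 0 in plate A alone and with same-well libraries summed, and 1 in plate B alone and on spike-in totals. DESeq2 also gave 2 calls at 2c, Hist4h4 and Hist1h1e, while Hist1h3i had a DESeq2 adjusted p of 0.104 at a log2 fold change of -3.09. The 9 at 8c became 5 in DESeq2, 1 in plate A, 3 in plate B and 1 with wells summed. DESeq2 gave no adjusted p at 8c for Hist2h2ac, Hist1h2ac and Hist1h2af (log2 fold changes of 3.05, 3.42 and 3.48), so these could not be called there. At MII the 0 calls became 1 with all libraries kept, with plate as a term or at an adjusted p under 0.1, and 2 in plate B. For the change of the genotype difference, the 0 calls between MII and 2c became 1 with all libraries kept, 1 in plate B and 2 with median-ratio factors, and the 2 calls between 2c and 8c became 1 in DESeq2 and 0 in plate A, on spike-in totals and with wells summed. The 24 calls from MII to 2c in WT became 11 in DESeq2, 14 in plate A, 13 in plate B and 12 on TMM sizes, and the 25 in matPlag1KO became 9 in DESeq2, 12 in plate A and 8 in plate B. From 2c to 8c the 25 WT calls became 16 in DESeq2 and 14 in plate A, and the 25 matPlag1KO calls 15 in DESeq2, 13 in plate A and 16 in plate B. Plates alone hold fewer libraries, and for the other settings the cause was not tested. Shares of all genes were not computed for DESeq2, for single plates or for the other scalings. With each well left out, calls ran from 0 to 4 at 2c and 4 to 10 at 8c between genotypes, and from 16 to 25 for the MII to 2c step in matPlag1KO. The block by well was fitted at MII (14 wells with opposite genotypes, plate as a term) and called 0 of 31 members. Well positions were not taken as pairs in the main fits. Mean percents of gene counts moved by less than 1 SD under the alternatives run.

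Signs turned for Hist1h2aa (0.62), Hist1h1d (0.51) and Hist1h3g (0.31) from MII to 2c in matPlag1KO in plate B alone, and for Hist1h1a in that step on TMM sizes (0.40). Leaving out wells took the log2 fold change of Hist1h3i at 2c from -4.47 to 0.56, and at 8c that of Hist1h1a from -0.87 to 3.22 and of Hist1h2bl from -0.19 to 4.69. It took the 2c to 8c change of Hist2h2bb in WT from -1.06 to 6.05, and in matPlag1KO those of Hist1h4a from -0.34 to 2.42 and of Hist1h2ah from -0.22 to 3.48. A member without counts in the groups compared, or dropped by the gene filter under a setting, had no value there. The filter left 46 members tested in each plate alone, and Hist1h2bl, with counts at 8c in both plates, was not among them. DESeq2 also gave no adjusted p for Hist2h3c1 and Hist4h4 from MII to 2c in WT, although both had counts.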
